A study of Homo sapiens with 11 samples.

Results

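The genes that brake and start the cell cycle in G1 were followed in lung adenocarcinoma cells with and without restored TRIM58. These were 10 genes, namely the 7 CDK inhibitors CDKN1A, CDKN1B, CDKN1C, CDKN2A, CDKN2B, CDKN2C and CDKN2D and the 3 D-type cyclins CCND1, CCND2 and CCND3. They were chosen by name, and every probe whose RefSeq accession belongs to 1 of them was taken, which gave 12 of the 42405 probes on the array (10 of the 20249 genes that could be named).

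RNA was measured on 11 Agilent 1-colour arrays. The cells were A549 and HCC827, established cell lines of human lung adenocarcinoma. Each line had been infected with a retroviral vector that carries a neomycin resistance gene and selected with G418, and the vector was either empty (mock) or carried the FLAG-tagged coding sequence of wild-type TRIM58 (TRIM58-WT). A549 had 3 mock replicates on 4 arrays and 3 TRIM58-WT replicates, and HCC827 had 2 mock and 2 TRIM58-WT replicates. The mock arrays 1-1 and 1-2 of A549 came from the same control cell and were averaged to 1 replicate in every mean and test. According to the study's methods the A549 transfectants were isolated clones, so that differences between clones are part of the spread between replicates, whereas the HCC827 transfectants are described as crude, that is, not cloned. A549 is known as a line with a homozygous deletion at CDKN2A, whereas HCC827 is known for an activating EGFR deletion. Copy number was not analysed here.

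D-type cyclins bind CDK4 and CDK6, and the active kinases phosphorylate the retinoblastoma protein, which releases E2F factors and opens the way into S phase. The 4 INK4 proteins, encoded by CDKN2A, CDKN2B, CDKN2C and CDKN2D, bind CDK4 and CDK6 and keep the cyclin away. The CIP/KIP proteins, encoded by CDKN1A, CDKN1B and CDKN1C, bind cyclin-CDK complexes, above all those of CDK2. CDKN2A is among the genes most often lost in lung cancer, and CCND1 is among those most often gained.

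Levels are given as log2 of the background-subtracted signal minus the 75th percentile of the array, so that 0 is a probe at that percentile. Levels of different probes are not compared, because probes differ in how strongly they bind. Tests were run on the probes that the scanner software marked as well above background throughout 1 or both of the groups compared. Calls were made with limma and Benjamini-Hochberg adjustment over all tested probes, at a threshold of 0.05 for the adjusted p and of 2-fold for the change. Between arrays, the share of probes above background ran from 40.1% to 49.99%, the percentile used as the scale lay at a signal of 56.6 to 125, and no spot was saturated. Precision is limited by how few arrays each group has.

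2 features of the libraries bear on what follows. A549 mock replicate 3 stood apart from the other mock arrays. It correlated with TRIM58-WT replicates 2 and 3 at r = 0.966 and 0.967 and with the other mock arrays at 0.953 to 0.963. Correlations between arrays were taken over the probes well above background on all arrays of at least 1 of the 4 groups. TRIM58-WT replicates 2 and 3 of A549 correlated with each other at 0.993, as did the mock arrays 1-1 and 1-2 of the same control cell, so values with both averaged are given where they end a call. Mock 3, TRIM58-WT 2 and TRIM58-WT 3 also shared a lower 75th percentile of the signal (56.6 to 62.5, against 90.5 to 103 on the other A549 arrays). Leaving out mock 3 thus removes the only mock replicate of this lower-signal set. Differences within each set, compared after the data were seen, rest on 1 mock and 2 TRIM58-WT replicates in the lower set and on 2 and 1 in the higher set. The p-values measure only the spread between these samples. The array probe of TRIM58 did not mark the transfectants. It was well above background only on the library labelled A549 mock 3, at -0.71, and its highest value on any other array was -4.63. Whether this probe lies within the coding sequence that the vector carries was not tested.

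The markers of the labelled cell type were partly present. The 5 epithelial markers were well above background on every array, except that EPCAM was not on A549 TRIM58-WT replicates 2 and 3. Of the 3 lung lineage markers, NKX2-1 was at the background on all 7 A549 arrays, at -5.27 to -4.52, and stood at 3.62 to 4.85 on the HCC827 arrays. The 3 fibroblast and both endothelial markers were not well above background on any array. Of the 2 immune markers, CD68 was well above background on all arrays, at 0.31 to 1.56 in A549 and 2.03 to 2.78 in HCC827, with a log2 change with TRIM58-WT of -0.91 in A549 (adjusted p = 0.0858) and 0.63 in HCC827 (adjusted p = 0.138). The brightest probe of PTPRC was well above background on some arrays of every group, at -3.13 to -1.64.

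**Figure D1:**
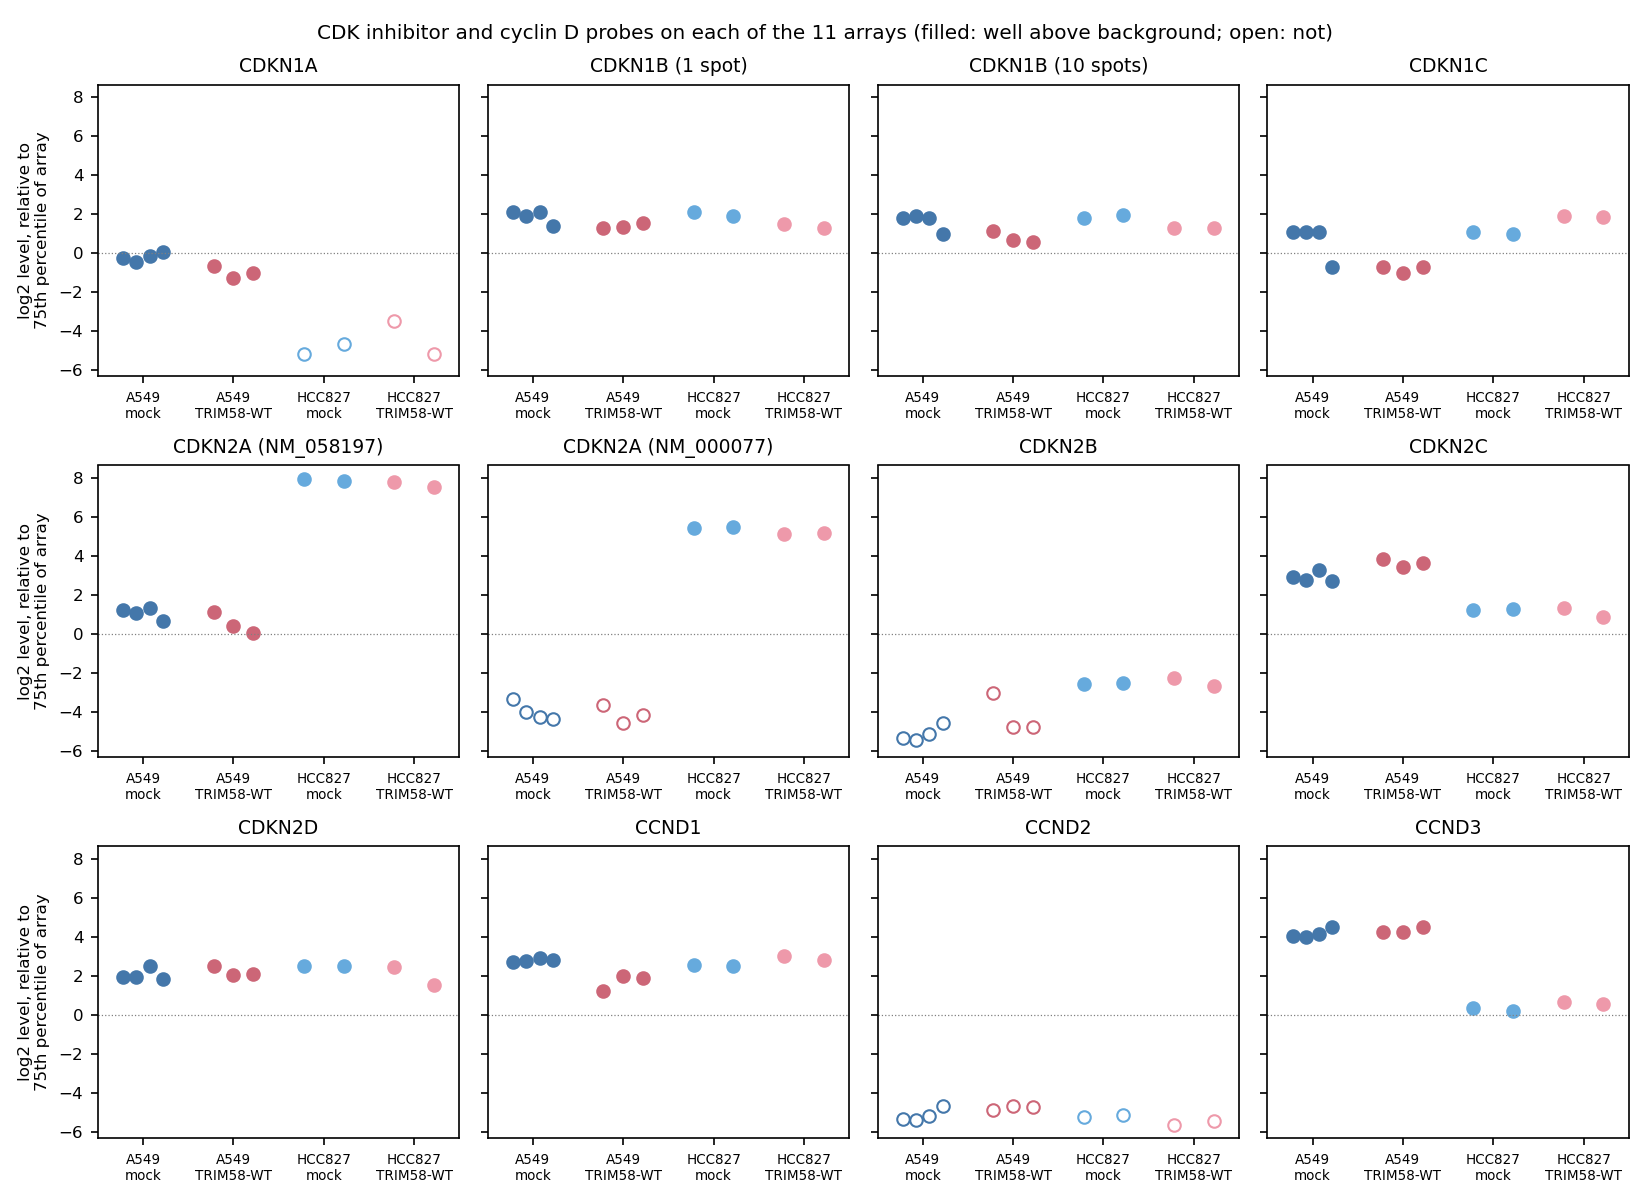
Level of each of the 12 probes on each array, as log2 relative to the 75th percentile of the array, in the 4 groups. Filled points are well above background and open points are not. CDKN2A and CCND3 separate the lines on every array, CDKN1A lies at the background on all 4 HCC827 arrays, CCND2 lies at the background on all 11, and the CDKN1C value of A549 mock replicate 3 (-0.74) lies among the TRIM58-WT values.

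In A549, CCND1 was the only member called with TRIM58-WT. CCND1 (accession NM_053056, chromosome 11) encodes cyclin D1 and was measured by 10 spots. It stood at 2.74 and 2.77 on mock arrays 1-1 and 1-2, at 2.94 on mock 2 and at 2.82 on mock 3. With TRIM58-WT it stood at 1.21, 2.01 and 1.90. All 3 TRIM58-WT values lay below all mock values, and TRIM58-WT replicate 1 was the lowest. The mean fell from 2.84 ± 0.09 to 1.71 ± 0.43 (SD, n = 3 each), a 2.19-fold decrease (log2 change -1.13, SE 0.24, 95% confidence interval -1.72 to -0.54, adjusted p = 0.0395 by limma). The SD between the 8 to 10 spots used on 1 array was 0.06 to 0.21. These spots repeat the same RNA, so their spread does not measure differences between replicates. The call rested on all replicates together, since it was lost when any 1 of them was left out, with adjusted p = 0.147 without mock 1, 0.151 without mock 2, 0.0559 without mock 3, 0.087 without TRIM58-WT 2 and 0.116 without TRIM58-WT 3. Without TRIM58-WT 1 the adjusted p was 0.0236, but the log2 change of -0.89 was under 2-fold. With TRIM58-WT 2 and 3 averaged, the adjusted p was 0.101. The direction was the same in each of these fits. The differences within the lower-signal and higher-signal sets were -0.87 and -1.64, and with the set as a block the call was kept (log2 change -1.25, adjusted p = 0.0118).

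Of the 12 probes, 9 were tested in A549 (8 genes), and CCND1 made 1 called. Over all probes, 6.92% of 16923 were called. The values of mock and TRIM58-WT did not overlap for 3 of the 9, against 31% of all probes.

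CDKN1A (NM_078467, chromosome 6) encodes p21, an inhibitor induced after DNA damage. Its levels in A549 were -0.24 and -0.46 on the arrays of mock 1, -0.16 on mock 2 and 0.04 on mock 3, and -0.69, -1.27 and -1.01 with TRIM58-WT. The groups did not overlap, and every TRIM58-WT value was the lower. The log2 change was -0.83 (SE 0.21, 95% confidence interval -1.34 to -0.32), which did not pass the test (adjusted p = 0.0624, 1.78-fold). Within slide 1 the difference was -0.49 and within slide 2 it was -0.93. Within the lower-signal and higher-signal sets it was -1.18 and -0.43. With the set as a block the adjusted p was 0.0435, with a change still under 2-fold (log2 -0.81). Only RNA was measured here. For the protein, the study reports western blots in which p21 was pronounced in TRIM58-WT transfectants alone.

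CDKN2C (NM_078626, chromosome 1) encodes p18, an INK4 inhibitor. It stood at 2.93, 2.78, 3.26 and 2.71 on the mock arrays and at 3.87, 3.45 and 3.66 with TRIM58-WT. It was higher in every TRIM58-WT replicate than in any mock replicate, by 0.72 (log2, SE 0.21, 95% confidence interval 0.20 to 1.23), but did not pass the test (adjusted p = 0.0931). The differences within slides 1 and 2 were 0.77 and 0.81. Within the lower-signal and higher-signal sets they were 0.85 and 0.81, and with the set as a block the adjusted p was 0.0185 at a log2 change of 0.83, under 2-fold.

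CDKN1C (NM_000076, chromosome 11) encodes p57, the CIP/KIP inhibitor of an imprinted locus. It stood at 1.07, 1.05 and 1.07 on mock arrays 1-1, 1-2 and 2, at -0.74 on mock 3, and at -0.71, -1.05 and -0.75 with TRIM58-WT. Mock 3 thus lay within the range of the TRIM58-WT replicates and the groups overlapped. With mock 3, the log2 change was -1.30 (SE 0.50, adjusted p = 0.169). Without mock 3 it was -1.90, with adjusted p = 0.00364, and passed the test. The difference was -0.16 within the lower-signal set, which holds mock 3, and -1.77 within the higher-signal set. With the set as a block it was -0.97 (adjusted p = 0.116). Mock 3 is the only mock replicate of the lower-signal set, and TRIM58-WT 1 the only TRIM58-WT replicate of the higher-signal set. Why mock 3 lay among the TRIM58-WT values was not tested.

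CDKN1B (NM_004064, chromosome 12) encodes p27, the inhibitor that rises in resting cells, and was measured by 2 probes. The probe with 10 spots stood at 1.81, 1.91, 1.81 and 0.98 on the mock arrays and at 1.1, 0.64 and 0.55 with TRIM58-WT. The probe with 1 spot stood at 2.08, 1.88, 2.10 and 1.38 and at 1.29, 1.32 and 1.53. On both probes mock 3 was the lowest mock array, and the groups overlapped. The log2 changes were -0.79 (adjusted p = 0.163) and -0.44 (adjusted p = 0.301). Without mock 3, the change of the first was -1.07, with adjusted p = 0.0342, which passed the test, and the change of the second was -0.66, with adjusted p = 0.0586. Within the lower-signal set the differences were -0.38 and 0.04, and within the higher-signal set -0.73 and -0.75. With the set as a block the log2 changes were -0.56 (adjusted p = 0.0313, under 2-fold) and -0.35 (adjusted p = 0.267).

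The remaining members did not pass the test in A549. CCND3 (NM_001760, chromosome 6), which encodes cyclin D3, was 4.0 to 4.53 on the mock arrays and 4.25 to 4.53 with TRIM58-WT, a log2 change of 0.11 with a 95% confidence interval of -0.36 to 0.58 (adjusted p = 0.775). CDKN2D (NM_001800, chromosome 19), which encodes the INK4 inhibitor p19, changed by 0.13 with an interval of -0.45 to 0.71 (adjusted p = 0.792). With the median of each array as the scale, which moved the median of all probes from 0.06 to -0.31, both of these log2 changes turned to -0.26 and -0.24. The CDKN2A probe for NM_058197 changed by -0.54 (adjusted p = 0.378). The CDKN2A probe for NM_000077, CDKN2B and CCND2 were at the background throughout A549 and were not tested. On these arrays CDKN2B (NM_004936, chromosome 9) reached -3.02 at most and CCND2 (NM_001759, chromosome 12) -4.66, so no change of these genes was measurable.

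Over the 8 genes tested in A549, taking the brightest probe of each, 5 log2 changes were below 0 and 3 above, with a median of -0.49. The median over all 11185 genes tested was 0.03. The groups also differed in markers of cell state. Of the 5 epithelial markers EPCAM (log2 change -4.88) and KRT8 (-1.37) were called lower in TRIM58-WT by their brightest probe. KRT18 was called lower by another of its probes. CDH1 was lower without a call (-2.33, adjusted p = 0.0716 by limma). KRT7 went the other way without a call (0.25, adjusted p = 0.724 by limma), as did a further KRT8 probe, at 2.59 in mock and 2.92 with TRIM58-WT. The summed linear level of the list, to which the brightest markers add most, was 1351 to 2234 on mock and 1095 to 1720 on TRIM58-WT arrays. Of the 3 mesenchymal markers CDH2 was called higher (2.72), and the summed level was 27.5 to 190 on mock arrays, highest on mock 3, and 119 to 392 on TRIM58-WT arrays. Their part in the member changes was not tested.

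**Figure D2:**
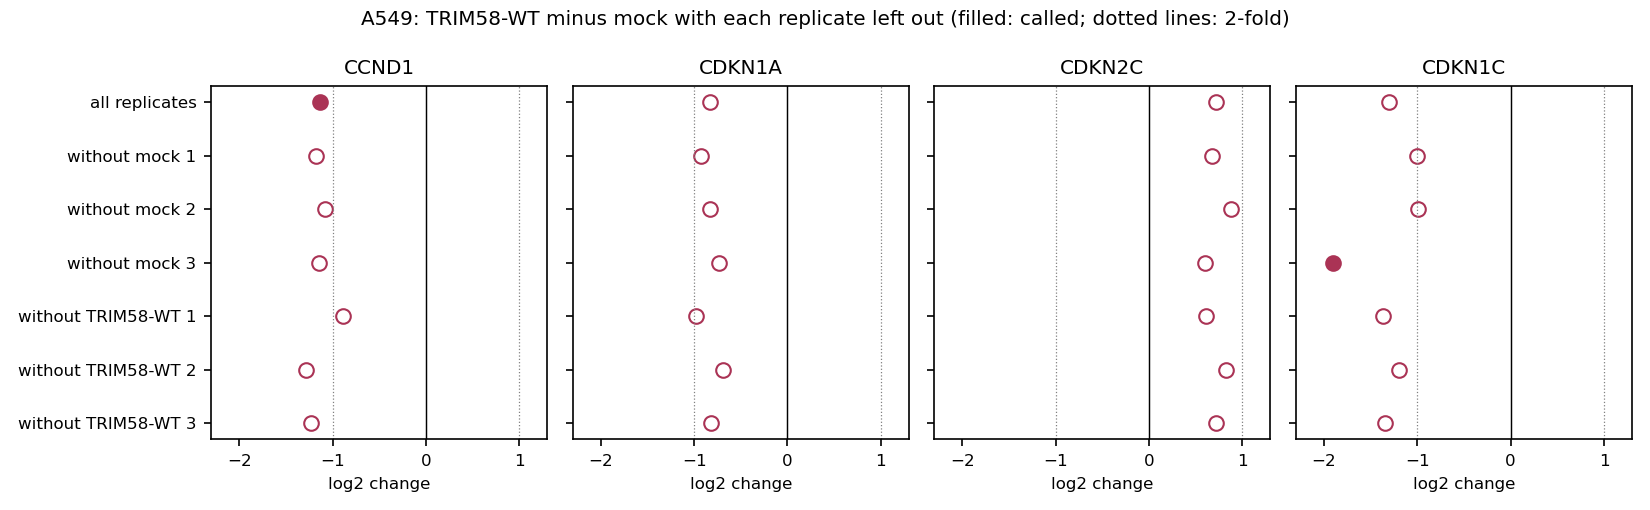
Log2 change in A549, TRIM58-WT minus mock, for CCND1, CDKN1A, CDKN2C and CDKN1C with all replicates and with each replicate left out in turn. Filled points were called and dotted lines mark 2-fold. CCND1 is filled only with all replicates, and CDKN1C only without mock replicate 3 (log2 change -1.90).

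In HCC827, no member was called. Of the 10 probes tested (8 genes), 0 passed the test in limma, and 5 had an unadjusted p under 0.05 beside 20.3% of all probes. The methods' t-test called 0 too, but with 2 replicates in each group it has little power, so this adds no support. Over all probes, 0.884% of 19563 were called in HCC827. The replicates of the groups did not overlap for 8 of the 10, beside 56.7% of all probes in this comparison of 2 against 2.

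CDKN1C was the member with the largest change in HCC827, in the opposite direction to A549. It stood at 1.09 and 0.98 in mock and at 1.92 and 1.83 with TRIM58-WT. Both TRIM58-WT values lay above both mock values, with a log2 change of 0.84 (SE 0.13, 95% confidence interval 0.48 to 1.19, adjusted p = 0.0813). CCND1 was also higher with TRIM58-WT, at 3.02 and 2.82 beside 2.56 and 2.51 in mock. Its log2 change of 0.39 (95% confidence interval 0.00 to 0.77) did not pass the test (adjusted p = 0.245). Lung lineage markers stood lower in the same TRIM58-WT samples, with a summed linear level of 59.2 to 69.1 on mock and 24.9 to 31.5 on TRIM58-WT arrays. NKX2-1 changed by -1.07 (adjusted p = 0.0731) and NAPSA by -1.30 (adjusted p = 0.0989). Of the 2 mesenchymal markers tested, VIM changed by 1.43 (adjusted p = 0.104) and CDH2, the other way, by -1.35. CDH2 was dim, at -2.40 in mock and, no longer well above background, at -3.75 with TRIM58-WT. The log2 changes of the 5 epithelial markers were all above 0, from 0.01 to 0.61. Their summed linear level was 959 to 1038 on mock and 1148 to 1311 on TRIM58-WT arrays. None of these markers was called, and their part in the member changes was not tested.

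The CDKN1B probe with 10 spots stood at 1.78 and 1.95 in mock and at 1.28 and 1.27 with TRIM58-WT, and the probe with 1 spot at 2.09 and 1.90 and at 1.48 and 1.26. Both were lower in each TRIM58-WT replicate, by -0.59 (adjusted p = 0.134) and -0.62 (adjusted p = 0.15) on the log2 scale. The 95% confidence intervals left out 0 for both probes in HCC827 (-0.96 to -0.22 and -1.05 to -0.20) and for the 10-spot probe in A549 (-1.51 to -0.07). An interval that leaves out 0 corresponds to an unadjusted p under 0.05 in limma, reached by 25.3% of all probes in A549 and 20.3% in HCC827. In A549 the interval of the 1-spot probe held 0, and the groups overlapped on both probes. The mean of each CDKN1B probe was thus lower with TRIM58-WT in both lines, without passing the test in either. Whether CDKN1B falls with TRIM58-WT in A549 was not settled by these replicates.

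The CDKN2A probes stood at 5.46 and 5.51 (NM_000077) and at 7.97 and 7.86 (NM_058197) in HCC827 mock. With TRIM58-WT they stood at 5.12 and 5.16 and at 7.79 and 7.57, log2 changes of -0.35 (adjusted p = 0.238) and -0.24 (adjusted p = 0.417). The gene thus stayed bright in both groups. CCND3 stood at 0.33 and 0.22 in mock and at 0.64 and 0.56 with TRIM58-WT (log2 change 0.32, adjusted p = 0.276). CDKN2D stood at 2.51 and 2.52 in mock and at 2.46 and 1.52 with TRIM58-WT, so that its change of -0.52 came from 1 replicate (adjusted p = 0.431). CDKN2C changed by -0.17 (adjusted p = 0.636) and CDKN2B by 0.08 (95% confidence interval -0.41 to 0.57, adjusted p = 0.825). CDKN1A and CCND2 were not well above background on any HCC827 array, so any change of CDKN1A with TRIM58-WT in this line was below what the probe could measure. The western blots of p21 protein in the study covered the stable transfectants, HCC827 among them. The study reports p21 as pronounced only with TRIM58-WT, and not with mock or a TRIM58 mutant that lacks ligase activity.

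**Figure D3:**
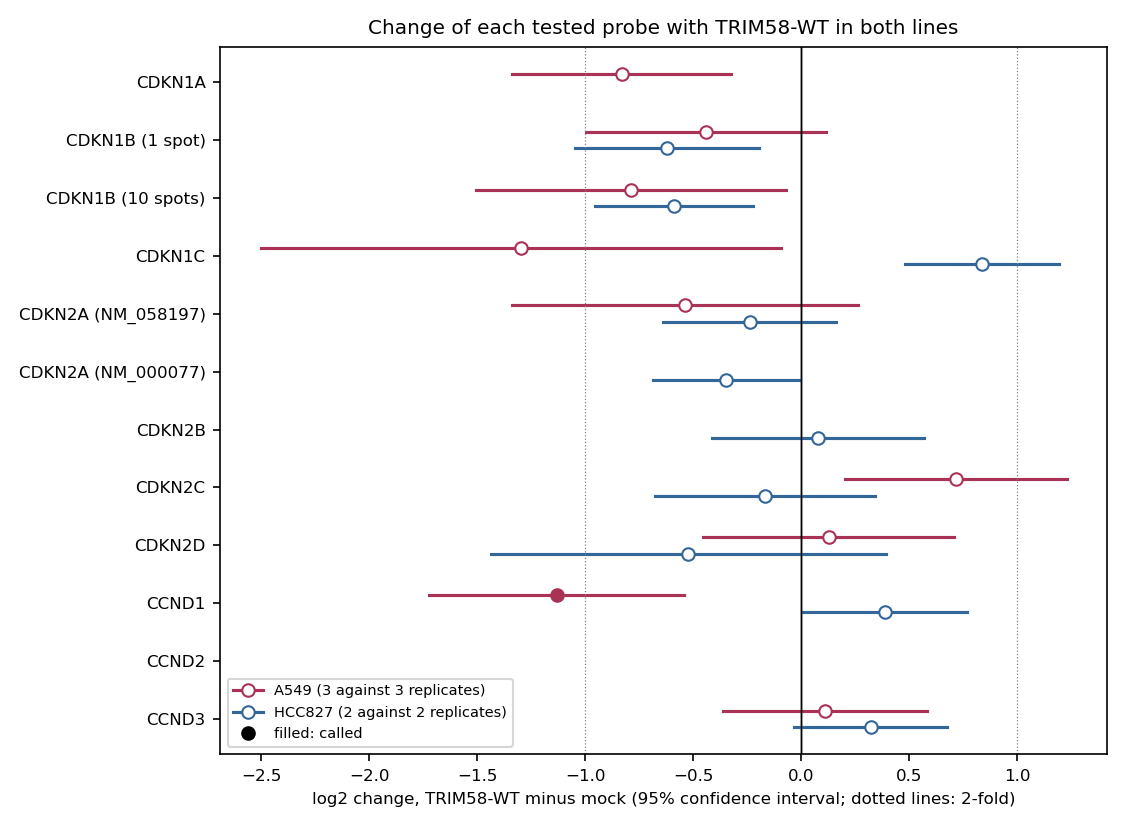
Log2 change of each tested probe, TRIM58-WT minus mock, with 95% confidence intervals in A549 (3 against 3 replicates) and HCC827 (2 against 2). The filled point is called and dotted lines mark 2-fold. The CCND1 and CDKN1C changes lie on opposite sides of 0 in the 2 lines, and both CDKN1B probes lie below 0 in both.

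Whether the change differed between the lines was tested in 1 fit of all 10 replicates, called at an adjusted p under 0.05. Of 11 member probes 0 were called, 3 had an unadjusted p under 0.05 (CCND1, CDKN1C and CDKN2C) beside 18.4% of all probes, and 3.86% of 20641 probes were called over the array. The CCND1 difference, HCC827 minus A549, was 1.52 (log2, SE 0.34, 95% confidence interval 0.73 to 2.31, adjusted p = 0.0511), and over the alternative settings its adjusted p ran from 0.0139 to 0.185. It passed the test without A549 mock 3 (adjusted p = 0.0446) and without A549 TRIM58-WT 1 (0.0145). The CDKN1C difference was 2.14 (SE 0.70, adjusted p = 0.142), and without A549 mock 3 it was 2.74 with adjusted p = 0.000648. The CDKN2C difference was -0.88 (SE 0.32, adjusted p = 0.188). For CDKN1A, at the background in HCC827, the fitted difference of 1.42 is no measure of its change there (adjusted p = 0.277), though it passed the test without HCC827 TRIM58-WT 2 (adjusted p = 0.0478).

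More members were called between the lines than with TRIM58-WT in either line. Comparing HCC827 mock with A549 mock, 6 of 11 member probes (5 of 9 genes) were called, beside 30.3% of 19505 probes over the array. Non-overlapping values were found for 7 of the 11, beside 69.7% of all probes. Of the 6 probes, 3 (CDKN1A, CDKN2B and CDKN2A NM_000077) were tested only through the line in which they were high, and 3 were called where probes had to be well above background on every array. The 5 genes were CDKN2A and CDKN2B, higher in HCC827, and CDKN1A, CDKN2C and CCND3, higher in A549.

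The promoters of the 3 inhibitors that had a probe at the background in the mock of 1 line and measured in that of the other are shown, from 250 bases before to 50 bases after the gene start, as RefSeq gives them on GRCh38.p14. They were CDKN1A at chr6:36678464-36678763 (plus strand), CDKN2A at chr9:21974808-21975107 (minus strand, the more downstream of its 2 starts in this table) and CDKN2B at chr9:22009256-22009555 (minus strand). Capitals mark the GC box GGGCGG or its reverse complement CCGCCC, the core that SP1 binds.
CDKN1A: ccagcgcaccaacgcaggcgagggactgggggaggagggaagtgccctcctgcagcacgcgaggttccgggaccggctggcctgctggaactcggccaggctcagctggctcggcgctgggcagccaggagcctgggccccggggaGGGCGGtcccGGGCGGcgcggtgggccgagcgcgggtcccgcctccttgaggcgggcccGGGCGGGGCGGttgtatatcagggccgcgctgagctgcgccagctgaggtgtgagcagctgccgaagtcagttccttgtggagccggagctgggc
CDKN2A: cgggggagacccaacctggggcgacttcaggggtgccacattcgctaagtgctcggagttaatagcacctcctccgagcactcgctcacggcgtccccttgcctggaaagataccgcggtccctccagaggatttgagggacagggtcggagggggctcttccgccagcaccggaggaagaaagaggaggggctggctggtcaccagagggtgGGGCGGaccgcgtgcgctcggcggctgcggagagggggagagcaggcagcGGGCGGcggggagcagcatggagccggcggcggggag
CDKN2B: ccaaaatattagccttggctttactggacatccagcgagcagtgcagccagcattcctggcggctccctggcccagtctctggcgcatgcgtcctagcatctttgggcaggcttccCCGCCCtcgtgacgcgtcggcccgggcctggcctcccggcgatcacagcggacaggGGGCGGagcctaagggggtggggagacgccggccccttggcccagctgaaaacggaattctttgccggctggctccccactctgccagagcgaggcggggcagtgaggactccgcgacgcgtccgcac
The motif was found 4 times in the CDKN1A window, where 2 matches adjoin and share a base, and 2 times in each of the other windows shown. It occurs in 45.0% of the 35116 promoters of this length in the table. The window of the other CDKN2A start, not shown, held 0 matches. Among the members not shown, a CDKN2C window held 6 matches and another CDKN2C window 0. The TATA box TATAAA or TTTATA, which occurs in 11.53% of the 35116 promoters, was not found in the 3 windows shown. These windows hold 29, 26 and 25 CpG dinucleotides with a GC content of 74.3%, 69.0% and 67.3%.

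CDKN2A (chromosome 9) encodes p16 and, from another reading frame, ARF. The probe for NM_000077 was not well above background on any A549 mock array, at -3.36, -4.01, -4.27 and -4.37, and stood at 5.46 and 5.51 in HCC827 mock. It was at least 332-fold higher in HCC827, a bound that sets A549 at the lowest signal still well above background, or at the probe's own where that was higher (adjusted p = 4.41e-05). With normexp background correction the log2 difference was 6.09, beside 9.60. The probe for NM_058197 was well above background on all 11 arrays. It stood at 1.25, 1.05, 1.35 and 0.68 in A549 mock and at 7.97 and 7.86 in HCC827 mock, 116-fold higher in HCC827 (log2 difference 6.85, SE 0.25, adjusted p = 7.57e-05). Both probes gave the same direction but disagreed on whether A549 had a signal, and which transcripts each probe can bind was not tested.

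CDKN2B, the INK4 gene next to CDKN2A, encodes p15, an inhibitor induced by TGF-beta. It was not well above background on any A549 mock array, at -5.33, -5.45, -5.12 and -4.59, and dim but measured in HCC827 mock, at -2.60 and -2.51. The bound is only at least 1.26-fold higher in HCC827 (adjusted p = 0.0019), and with normexp background correction the call was lost (log2 difference 0.17, adjusted p = 0.442).

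Of the 5 neighbours of CDKN2A and CDKN2B on 9p21 taken as a list, MTAP and KLHL9 were tested between the lines. The 3 probes of MTAP, the nearest protein-coding gene on the other side of CDKN2A, disagreed, although all carry the accession NM_002451. A first probe (A_24_P51118) was well above background on all arrays and stood at 1.00 to 1.33 in A549 mock and at 0.98 and 1.02 in HCC827 mock (log2 difference -0.16, adjusted p = 0.498). The other 2 were at the background on all 7 A549 arrays. A_24_P297888 stood at -5.32 to -4.61 in A549 mock and at 2.37 and 2.43 in HCC827 mock, at least 39.1-fold higher in HCC827 (adjusted p = 6.96e-05). A_33_P3329108 stood at -5.42 to -4.72 and at 2.55 and 2.66, at least 45.0-fold higher (adjusted p = 6.42e-05). As for CDKN2A, 1 probe gave a signal in A549 where others were at the background, and which transcripts each probe can bind was not tested. KLHL9 was called lower in HCC827 (log2 difference -1.27, adjusted p = 0.00749), opposite to CDKN2A. CDKN2B-AS1, DMRTA1 and ELAVL2 were not well above background on every array of either mock group.

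CDKN1A lay the other way. It stood at -0.46 to 0.04 in A549 mock and was not well above background in HCC827 mock, at -5.22 and -4.67. It was at least 8.43-fold lower in HCC827 (adjusted p = 0.000171; log2 difference -4.79, and -1.36 with normexp background correction), and it was not well above background with TRIM58-WT there either, at -3.52 and -5.19. With the methods' t-test the adjusted p was 0.0655.

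CCND3 and CDKN2C were measured in both lines and higher in A549. CCND3 stood at 4.05, 4.0, 4.16 and 4.53 in A549 mock and at 0.33 and 0.22 in HCC827 mock, 15.6-fold lower in HCC827 (log2 difference -3.96, SE 0.21, adjusted p = 0.000202). CDKN2C stood at 2.71 to 3.26 in A549 mock and at 1.24 and 1.29 in HCC827 mock, 3.21-fold lower (log2 difference -1.68, SE 0.22, adjusted p = 0.00317). CCND1 stood close in both, at 2.74 to 2.94 and at 2.56 and 2.51, with a log2 difference of -0.31 and a 95% confidence interval of -0.70 to 0.09 (adjusted p = 0.171). CDKN1B (0.17 and 0.31 on its 2 probes), CDKN2D (0.41) and CDKN1C (0.57) did not pass the test either. The CDKN1C interval, -0.95 to 2.09, was the widest, with A549 mock 3 the value far from the others. The mock arrays of slide 1 alone also gave 6 calls.

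**Figure D4:**
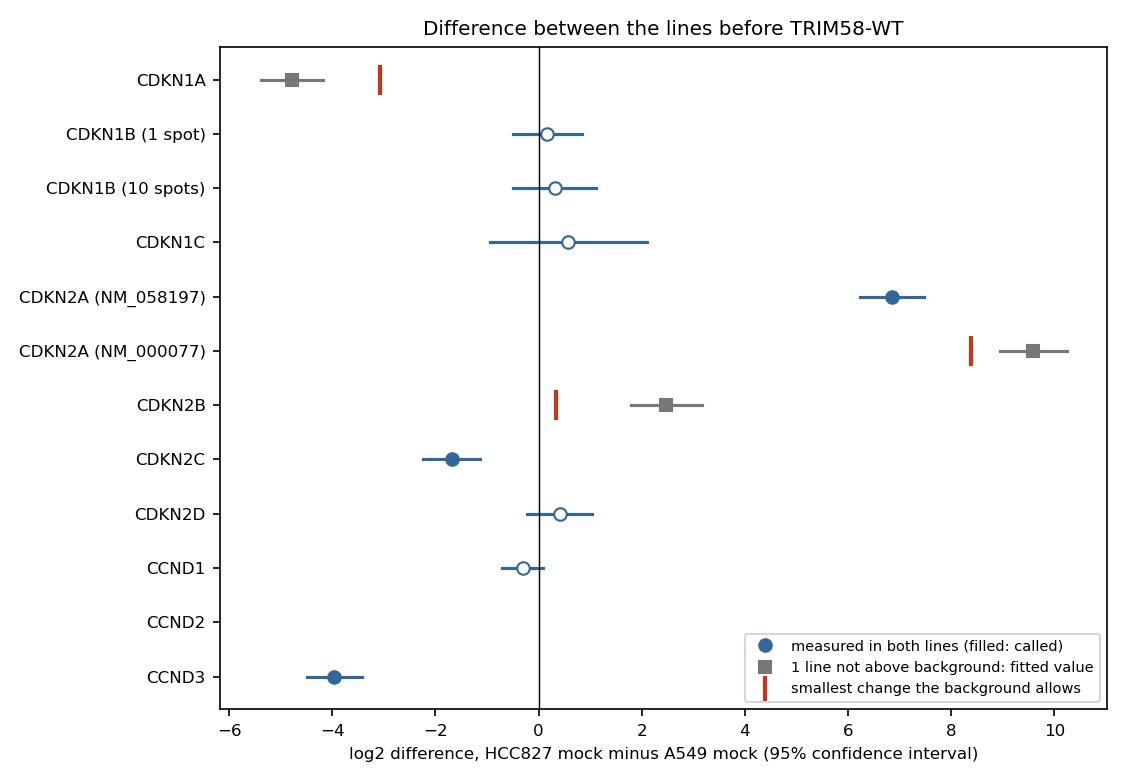
Log2 difference of each tested probe, HCC827 mock minus A549 mock, with 95% confidence intervals. Squares are probes at the background in 1 line, and the red mark is the smallest difference that the background allows (at least 332-fold for CDKN2A NM_000077, 8.43-fold for CDKN1A and 1.26-fold for CDKN2B). CDKN2A lies farthest to the right and CDKN1A and CCND3 farthest to the left.

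The levels of each member over the 4 groups fell into 3 kinds of order. CDKN2A, CDKN2B, CDKN1A, CDKN2C and CCND3 were ordered by line, with TRIM58-WT and mock of the same line next to each other in every case. CDKN2D and CCND1 lay within a range of 1.52 to 2.52 and 1.21 to 3.02 in all samples, and the CDKN1B probes within 0.55 to 1.95 (10 spots) and 1.26 to 2.10 (1 spot). The lowest values of CCND1 and of the 10-spot CDKN1B probe were in A549 TRIM58-WT, and that of the 1-spot probe in HCC827 TRIM58-WT. CDKN1C was lowest in A549 TRIM58-WT, at -0.83 ± 0.19 (SD, n = 3), higher in both mock groups, at 0.46 ± 1.04 (n = 3) in A549 and 1.04 ± 0.08 (n = 2) in HCC827, which did not differ beyond their spread, and highest in HCC827 TRIM58-WT, at 1.87 ± 0.06 (n = 2). CCND2, which encodes cyclin D2, was not well above background in any group.

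The partners and targets of these genes were read from lists chosen together with the members, with 1 probe for each gene. Over all genes tested with TRIM58-WT, 433 were called higher and 454 lower of 11185 in A549. In HCC827, 40 were called higher and 90 lower of 12182, so 0 calls in a short list there do not set its genes apart. Of 23 G1/S genes (CDKs, cyclins E and A, pocket proteins, E2F and DP factors and their regulators), 0 were called with TRIM58-WT in A549 and 0 in HCC827. Their log2 changes ran from -0.72 to 0.49 in A549 and from -0.83 to 0.39 in HCC827, with medians of -0.03 and -0.12, while the medians over all genes tested were 0.03 and 0.01. Of the S phase genes that E2F factors induce, 0 of 16 tested were called in A549 and 0 of 17 in HCC827, with medians of 0.09 and 0.06.

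Of 15 regulators of CDK inhibitor and cyclin D transcription, 2 were called in A549, both lower, and 0 in HCC827, beside 433 higher and 454 lower of all 11185 genes tested in A549. KLF4, a factor that activates CDKN1A, stood at 1.26, 1.00 and 1.15 on A549 mock arrays 1-1, 1-2 and 2, at -0.51 on mock 3, and at -1.23, -2.17 and -2.21 with TRIM58-WT, the last 2 not well above background. Its log2 change was -2.46 (adjusted p = 0.0382). In HCC827 it stood at -0.82 and -0.70 in mock and at 0.23 and 0.10 with TRIM58-WT, a change of 0.92 (adjusted p = 0.0771). ID1, an inhibitor of basic helix-loop-helix factors, stood at 7.25 to 7.64 on the A549 mock arrays and at 6.76, 5.83 and 5.74 with TRIM58-WT (log2 change -1.36, adjusted p = 0.0443). Both calls were lost without any 1 of mock 1, mock 2, TRIM58-WT 2 and TRIM58-WT 3 (adjusted p of 0.137 to 0.154 for KLF4 and 0.16 to 0.172 for ID1), and with TRIM58-WT 2 and 3 averaged (0.142 and 0.161). They were also lost with normexp background correction (0.0779 and 0.054), with no filter on dim probes (0.0932 and 0.128) and with the methods' t-test (0.21 and 0.243), and that of ID1 with quantile normalization (0.123). With normexp the log2 change of KLF4 was -1.17. With the signal set as a block both were kept (0.00241 and 0.0103).

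Between the mock lines, 8 of the 23 G1/S genes were called, 6 higher and 2 lower in HCC827. Over all 12388 genes tested, 2028 were called higher and 1922 lower. CDK4, the kinase that INK4 proteins bind, was the most different of the 23 and was named after its value was seen. It stood at 4.50 to 4.61 in A549 mock and at 8.47 and 8.58 in HCC827 mock (log2 difference 3.96, adjusted p = 8.65e-05). CCNE1 (-1.91) and E2F2 (-2.24) were the 2 called lower.

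The 5 genes whose pattern was most like that of CDKN1A were found by Pearson's r over the 10 replicates after the mean of each line was subtracted, among 12829 genes. They were PTER (r = 0.93), KRT10 (0.88), ZDHHC13 (0.88), TMEM184C (0.87) and STK4 (0.87). The replicates share clones, lines and slides, and CDKN1A was at the background in the 4 HCC827 replicates, so that these values only describe the samples. None of the 5 was called in a TRIM58-WT comparison in which it was tested.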

How the data were processed

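Total RNA of 11 stable transfectant samples was hybridised to Agilent 1-colour arrays. Per the file headers, the authors extracted an intensity for each spot with Feature Extraction 11.5.1.1 (the labels name 10.7), background-subtracted and not scaled between arrays. A table of log2 values from the authors was deposited too, centred for each probe on a baseline that is not stated. Its differences between arrays were within 0.01 of those computed here for 95.5% of values, its column medians ran from -0.12 to 0.46, and it was used as an alternative only. No column remained unmapped.

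Here, signals were averaged over the spots of a probe without outlier spots, put on the log2 scale and set relative to the array's 75th percentile. A probe counted as well above background where over a share of 0.5 of its spots did. Of 42405 probes, 27241 were named through the RefSeq accession (symbols of GRCh38.p14). lmFit and eBayes of limma 3.58.1 in R 4.3.3 were run on all probes tested, with Benjamini-Hochberg adjustment. The 28 probe values missing after outlier removal touched no member. The test was checked on simulated data. Samples were grouped by their labels alone. The members, lists and alternatives were chosen with earlier results of these data known. The genes named were all members, TRIM58, list genes called with TRIM58-WT and the 5 most like CDKN1A, and others are said to be named after their values were seen. Marker lists served only as checks. Where a list needed 1 probe, the brightest was used. Alternatives were other scalings, normexp with an offset of 50, filters on dim probes, outlier spots kept, the log2 table, the methods' t-test (Welch's), both lines in 1 fit, the replicate number and the slide as blocks, the 4 mock arrays kept separate, each replicate left out and, chosen after the data were seen, A549 TRIM58-WT replicates 2 and 3 averaged and the A549 arrays of lower and higher 75th percentile as a block. Slide 1 held 2 mock and 1 TRIM58-WT array of A549 and all HCC827 arrays, and slide 2 held 2 and 2 arrays of A549. Figures were drawn with matplotlib 3.10.9. No protein sequence was used here.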

Additional observations from a re-analysis of the deposited data

Results flagged for a closer look

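The change of KLF4 with TRIM58-WT differed between the lines by 3.38 on the log2 scale, HCC827 minus A549 (adjusted p = 0.0429 by limma for the difference itself). KLF4 was well above background on only 1 of the 3 A549 TRIM58-WT arrays, so the size of the difference depends on values at the background and is not an exact measure. It was lower with TRIM58-WT in 3 of 3 A549 replicates than in any mock replicate and higher in 2 of 2 HCC827 replicates. The call was kept without A549 mock 3 (3.93, adjusted p = 0.0021) and without A549 TRIM58-WT 1 (3.70, adjusted p = 0.0258), and was lost without any 1 of the other 8 replicates, with adjusted p of 0.0973 to 0.166, with normexp background correction (1.78, adjusted p = 0.0577), with no filter on dim probes (adjusted p = 0.0832) and with A549 TRIM58-WT 2 and 3 averaged (adjusted p = 0.102).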

How the results depend on the processing

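In A549, 1 member probe was called, and the count was 0 with the median of each array as the scale (CCND1 -1.50, adjusted p = 0.0643), with no filter on dim probes (adjusted p = 0.131), with the methods' t-test (adjusted p = 0.242) and with TRIM58-WT replicates 2 and 3 averaged, and ran from 0 to 2 when each replicate was left out, the 2 being CDKN1C and a CDKN1B probe without mock 3. Leaving out replicates in HCC827 gave 0 to 0 calls, and no other alternative gave a call there. Between the mock lines the count of 6 became 3 where probes had to be well above background on every array, since 3 called probes no longer met the filter, and was 6 to 6 with each replicate left out. For the difference between lines, the count of 0 became 1, always CCND1, with quantile normalization (adjusted p = 0.0274), normexp (0.0139), the filter on every array (0.0473) and 4 mock arrays kept separate (0.0247), and ran from 0 to 2 with each replicate left out. The causes of these shifts were not tested unless stated. Replicate numbers did not pair the samples: the deviations of same-numbered A549 samples correlated at 0.50, -0.42 and 0.50 and those in HCC827 at 0.08, and not every sample correlated best with its own number. With the replicate block, 1 member was called in A549 and 0 in HCC827, and over all probes 1119 rather than 1171 and 0 rather than 173, and ID1 in A549 had adjusted p = 0.0509. Of 688 values of single members under alternatives, 652 kept their direction and side of the threshold, 12 lost a call, 10 gained one, 14 changed sign while not called, and 0 reversed. Signal over background limits CCND2 everywhere, CDKN1A in HCC827 and CDKN2B and 1 CDKN2A probe in A549.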
